A study of Mus musculus with 6 samples.

Results

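The genes of the insulin-like growth factor (IGF) system were followed in the transcriptome of mammary isolates from *fat-1* and WT mice. They were the ligands *Igf1* and *Igf2*, the receptor *Igf1r* and the binding proteins *Igfbp2* to *Igfbp7*, chosen by gene symbol. Each of the 9 symbols matched 1 of the 61880 rows of the count matrix. When every row of the same assembled locus was added, the 9 loci held 12 rows. All 9 genes passed the filter on low counts and were tested, both as rows and as locus sums. None of them passed the test between genotypes, and in all 9 the samples of the genotypes overlapped. The samples themselves differed, with *Igfbp2* and *Igfbp3* high in the isolates where *Igf1*, *Igfbp4* and *Igfbp6* were low, in both genotypes.

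The *fat-1* mice carried a roundworm (*C. elegans*) *n*-3 desaturase transgene that acts in the whole body and makes *n*-3 PUFA from *n*-6 PUFA, so an effect of *n*-3 PUFA in the mammary cells cannot be told apart from one that reaches the gland from elsewhere. The WT mice lacked it. All mice were female, on an FVB background, aged 6 to 8 weeks, and kept for life on a modified AIN93G diet with 10% fat by weight from safflower oil, with 22% of the energy from fat. Each genotype had 3 samples, each a pool of cells from the inguinal mammary glands of several mice, and the labels name no batch. The methods of the study say that the lymph nodes were taken out before the digest, and the oestrous stage of the mice was not determined. The cells came from an overnight enzyme digest and were labelled as pooled mammary epithelial cells. A *p*-value here measures the spread between such pools, and nothing in the labels says whether pools of a genotype were prepared separately.

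IGF1 and IGF2 are secreted growth factors that act mainly through the receptor tyrosine kinase IGF1R. Most IGF in tissue is held by binding proteins, which bind IGF1 and IGF2 at least as tightly as the receptor does and release them when proteases cut them. In the mammary gland, growth hormone and estrogen are known to act on duct growth at puberty partly through IGF1 from the stroma, and IGFBP5 is known for its rise when the gland involutes after lactation. IGFBP7 is related to the family but binds IGF weakly.

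In GRCm38, *Igf1* lies on chromosome 10 (87858265 to 87937042), *Igf2* on chromosome 7 (142650766 to 142666816) and *Igf1r* also on chromosome 7 (67952827 to 68233668). *Igfbp2* (chromosome 1, 72824503 to 72852474) and *Igfbp5* (chromosome 1, 72857932 to 72874884) are neighbours on opposite strands, separated by 5457 bases. *Igfbp3* (chromosome 11, 7206086 to 7213923) and *Igfbp4* (chromosome 11, 99041244 to 99054392) share a chromosome only. *Igfbp6* (chromosome 15, 102144362 to 102149511) lies 112334 bases from the luminal keratin gene *Krt18* and 139879 bases from *Krt8*. *Igfbp7* lies on chromosome 5 (77349240 to 77408041).

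The promoters of *Igfbp2*, *Igfbp3*, *Igfbp4* and *Igfbp6* are shown because across the samples *Igfbp2* and *Igfbp3* ranked with the epithelial markers and *Igfbp4* and *Igfbp6* ranked against them, as described below. The sequences are the 250 bases before the RefSeq start on GRCm38.p6, read 5′ to 3′ on the strand of the gene, and for *Igfbp2* the first of its entries. The RefSeq starts of *Igfbp2* and *Igfbp6* lie before the gene starts given above. Capitals mark the letters of 3 motifs searched on both strands, namely the TATA box (TATAAA), the GC box (GGGCGG) and the CCAAT box. No marked motifs overlap here.
*Igfbp2* promoter, chr1:72824230-72824479, plus strand: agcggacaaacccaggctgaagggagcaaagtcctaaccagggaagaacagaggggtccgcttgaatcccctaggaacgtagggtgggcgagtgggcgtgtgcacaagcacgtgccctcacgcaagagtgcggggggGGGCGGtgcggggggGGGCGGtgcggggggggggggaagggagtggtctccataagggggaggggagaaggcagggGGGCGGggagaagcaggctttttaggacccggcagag
*Igfbp3* promoter, chr11:7213924-7214173, minus strand: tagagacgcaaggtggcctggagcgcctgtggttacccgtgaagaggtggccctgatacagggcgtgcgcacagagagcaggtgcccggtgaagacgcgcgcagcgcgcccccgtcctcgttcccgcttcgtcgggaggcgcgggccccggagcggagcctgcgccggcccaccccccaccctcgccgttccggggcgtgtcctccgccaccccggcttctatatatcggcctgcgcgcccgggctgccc
*Igfbp4* promoter, chr11:99040994-99041243, plus strand: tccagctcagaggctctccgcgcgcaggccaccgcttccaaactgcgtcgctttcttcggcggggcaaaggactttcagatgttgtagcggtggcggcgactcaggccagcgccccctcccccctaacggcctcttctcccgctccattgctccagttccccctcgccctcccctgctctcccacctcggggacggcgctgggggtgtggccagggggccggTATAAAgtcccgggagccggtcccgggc
*Igfbp6* promoter, chr15:102143936-102144185, plus strand: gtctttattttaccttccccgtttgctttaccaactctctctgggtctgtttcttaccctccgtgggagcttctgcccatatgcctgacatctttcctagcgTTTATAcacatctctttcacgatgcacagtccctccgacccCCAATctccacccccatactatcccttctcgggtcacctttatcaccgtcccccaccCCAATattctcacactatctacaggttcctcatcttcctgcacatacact

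The *Igfbp2* window held 3 GC boxes and the *Igfbp4* window 1 TATA box. The *Igfbp6* window held the TATA box letters on the opposite strand, farther from the start than in *Igfbp4*, and 2 CCAAT boxes. The *Igfbp3* window held the exact letters of none of these motifs. It does read tatatat close to the start, which the search did not count. These are matches of letters, and whether any of them acts as a TATA box was not tested. Of 32851 mouse promoter windows of the same length, 12.4% held the TATA box, 32.7% the GC box and 33.8% the CCAAT box, so each of these motifs is common. The windows of *Igfbp3*, *Igfbp4* and *Igfbp2* were rich in G and C (73.2%, 69.2% and 67.2%, with 32, 22 and 14 CG pairs), and that of *Igfbp6* was not (49.6%, with 7 CG pairs). The median over all windows was 52.4% with 6 CG pairs. The window of *Igf1*, which also ranked against the epithelial markers, held no TATA box, 1 CCAAT box and 52.8% G and C. The TATA box letters in the windows of *Igfbp4* and *Igfbp6*, in opposite orientations, were thus not shared by all 3 genes on that side.

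The samples summed to between 204539059 and 232148824 counts, and levels are given as CPM, which are counts scaled to a TMM-normalized library total. The epithelial label was checked against markers. The 25 epithelial genes (luminal and basal) summed to 1655 to 5164 CPM in *fat-1* and 1884 to 3962 CPM in WT. Of these, *Ly6a*, in a locus shared with *Ly6i*, was at 486 to 620 CPM. It was lowest in sample 1 of each genotype, where the epithelial sum was highest. Fibroblast markers (10 genes) summed to 1709 to 6593 and 3589 to 6119 CPM, and immune markers (19 genes) to 1934 to 3085 and 1823 to 3193 CPM. The immune sums include the *Cd68* locus at 668 to 860 CPM, highest in *fat-1* sample 1. That locus also holds a row of *Eif4a1*, so these sums are not immune RNA alone. No gene of these lists was at 0 in any sample, so the isolates also held RNA of fibroblasts and immune cells. The fibroblast sum was above the epithelial sum in every sample except sample 1 of each genotype. *Krt8* ranged from 210.1 to 899 CPM and *Ptprc*, the pan-leukocyte gene CD45, from 157 to 407 CPM. Genotypes overlapped for all 3 lists. The two-sided exact permutation test was run on the mean log2(CPM + 1) of each list, not on the sums, and gave *p* = 0.7, 0.7 and 0.8. The smallest *p* that 3 against 3 samples allow is 0.1. In such bulk samples, fewer cells of a type and less RNA per cell cannot be told apart. A further list of 5 lymph node stroma genes summed to 47.1 to 151 CPM in *fat-1* and 30.2 to 121 CPM in WT. Whether node tissue remained in the isolates was not tested.

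To rank the genes by level, CPM was divided by the exonic length in kb, taken over all annotated exons of a gene. Which transcripts were expressed was not examined, so the order of genes at close levels depends on this length. The binding proteins *Igfbp7* and *Igfbp6* were the most abundant, and the ligand *Igf1* was the least. *Igfbp7* had a mean of 111 CPM per kb over the 6 samples (66.0 to 135) and *Igfbp6* 98.1 (44.9 to 156), and *Igfbp7* was the higher in 4 of 6 samples. Below them came *Igfbp3* (24.2, from 16.7 to 36.0) and *Igfbp5* (16.2, from 7.0 to 26.9), with *Igfbp3* the higher in 5 of 6 samples. *Igfbp4* (5.11, from 3.80 to 6.41) and *Igf1r* (4.27, from 3.60 to 4.65) were close, with *Igfbp4* ahead in 4 of 6 samples. *Igf2* followed at 3.38 CPM per kb (2.69 to 4.50), *Igfbp2* at 2.07 (1.37 to 2.88) and *Igf1* at 0.156 (0.0804 to 0.208). The steps from *Igfbp6* to *Igfbp3*, from *Igfbp5* to *Igfbp4*, and each step from *Igf1r* down held in 6 of 6 samples. *Igfbp7* and *Igfbp6*, *Igfbp3* and *Igfbp5*, and *Igfbp4* and *Igf1r* were the neighbours whose order changed between samples.

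**Figure D1:**
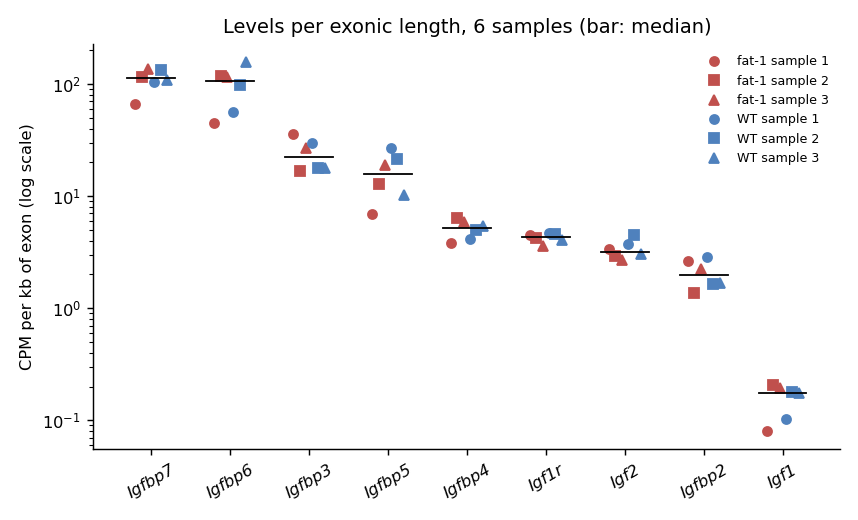
Level of each IGF gene per exonic length (CPM per kb, log axis) in the 6 samples, with points for the 3 *fat-1* and 3 WT samples and bars for the median. *Igfbp7* and *Igfbp6* lie at the top, between 44.9 and 156 CPM per kb, and *Igf1* lies lowest, between 0.0804 and 0.208.

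The comparison of genotypes asks whether lifelong *n*-3 PUFA exposure goes with a changed IGF system at puberty. With the quasi-likelihood test of edgeR and Benjamini–Hochberg adjustment, 0 of the 9 genes passed an adjusted *p* of 0.05, as rows or as locus sums, and the share of all features that passed was also 0%. At an unadjusted *p* of 0.05, 0 of the 9 genes passed, where 678 tested rows (2.21%) and 274 tested loci (1.14%) did. At this threshold DESeq2 also gave 0 of the 9 genes (3.02% of rows and 1.49% of loci), as did edgeR's exact test (2% of rows and 1.07% of loci). DESeq2 called 93 rows (0.303%) and 8 loci (0.0332%) after adjustment and edgeR's exact test 32 rows (0.104%) and 6 loci (0.0249%), and none of the 9 symbol rows or locus sums was among them. All 9 genes overlapped between genotypes, where 5.26% of tested rows and 4.15% of tested loci did not. The locus sums of 4 genes were higher in *fat-1* and those of 5 were lower, with a median log2 fold change of −0.11 beside 0.00 over all loci. The intervals below show which sizes of difference the samples leave possible.

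**Figure D2:**
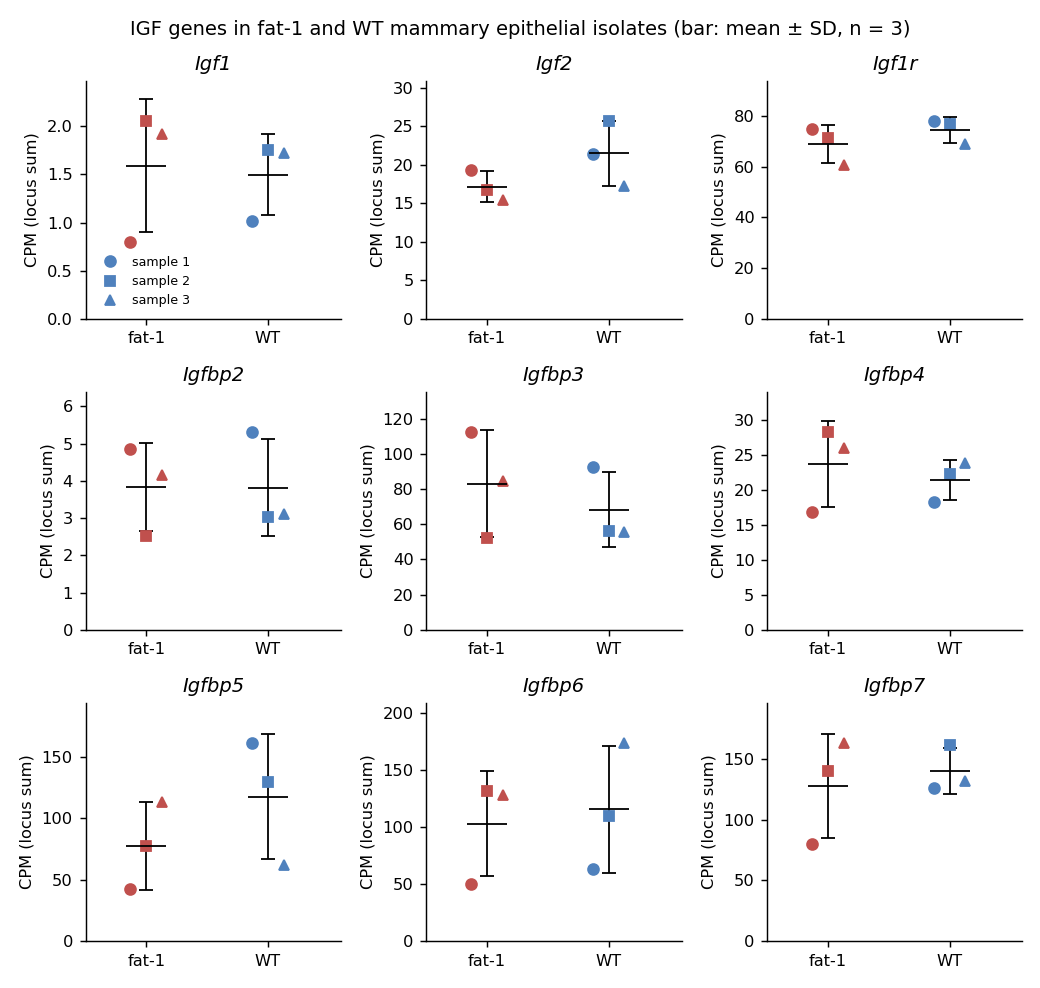
Level of each IGF gene (CPM of the locus sum) in each of the 3 *fat-1* and 3 WT samples, with bars for the mean ± SD of each genotype. The genotypes overlap in all 9 panels, and the samples spread most for *Igfbp5* (42.0 to 162 CPM) and *Igfbp6* (49.9 to 173 CPM).

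*Igf1*, the ligand through which growth hormone acts, was low in every isolate. Its counts were 168, 442 and 400 in *fat-1* and 217, 398 and 354 in WT, or 0.796, 2.06 and 1.92 CPM against 1.01, 1.76 and 1.72 CPM. Sample 1 was the lowest of each genotype, and the other samples of both genotypes ran together. The mean was 1.59 ± 0.69 CPM in *fat-1* and 1.50 ± 0.42 CPM in WT (SD, *n* = 3), a log2 fold change of 0.09 (SE 0.41, 95% interval −0.89 to 1.07). The *Igf1* row is an annotated gene and not an assembled locus. The matrix has 1121 assembled loci without a symbol and gives no positions for them, so reads of *Igf1* counted there are not included.

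*Igf2*, the ligand that is also imprinted and bound by the clearance receptor IGF2R, was at 19.4, 16.8 and 15.4 CPM in *fat-1* and 21.4, 25.8 and 17.3 CPM in WT. WT samples 1 and 2 were the highest, and WT sample 3 fell among the *fat-1* samples. The mean was 17.2 ± 2.03 CPM against 21.5 ± 4.24 CPM, a log2 fold change of −0.32 (SE 0.18, 95% interval −0.75 to 0.10). *Igf2* was the nearest of the 9 genes to the unadjusted threshold (adjusted *p* = 1.00, edgeR). Leaving out WT sample 3 brought it past that threshold (log2 fold change −0.44, adjusted *p* = 1.00, edgeR), and in no other alternative did a locus sum or symbol row of the 9 genes pass it. *Igf2* shares 3596 exonic bases with the readthrough gene *Gm49394* on the same strand, which had 0 counts in all 6 samples, and 98 with the antisense gene *Igf2os*.

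*Igf1r*, which encodes the signalling receptor, varied least. Its levels were 74.8, 71.2 and 60.5 CPM in *fat-1* and 78.1, 76.7 and 68.7 CPM in WT. The highest sample was 1.29 times the lowest. Its log2 fold change was −0.11 (SE 0.11, 95% interval −0.39 to 0.16), an interval of 0.765 to 1.12 times the WT level.

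*Igfbp2*, one of the smaller binding proteins by transcript level here, was at 4.85, 2.53 and 4.14 CPM in *fat-1* and 5.32, 3.03 and 3.11 CPM in WT. The means were alike, 3.84 ± 1.19 and 3.82 ± 1.30 CPM, and the log2 fold change was 0.01 (SE 0.33, 95% interval −0.79 to 0.80). *Igfbp3*, the main carrier of IGF in blood, was at 113, 52.2 and 84.6 CPM in *fat-1* and 92.7, 56.0 and 55.6 CPM in WT. Here sample 1 was the highest of each genotype, and *fat-1* sample 2 was below every WT sample. *Igfbp3* had a log2 fold change of 0.29 (SE 0.33, 95% interval −0.50 to 1.08) for the locus and 0.19 (SE 0.34) for the row with the symbol.

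*Igfbp4*, a binding protein cut by the protease pappalysin 1, had the opposite order. Its levels were 16.8, 28.3 and 26.0 CPM in *fat-1* and 18.3, 22.2 and 23.8 CPM in WT, so sample 1 was the lowest of each genotype. *Igfbp4* had a log2 fold change of 0.14 (SE 0.22, 95% interval −0.39 to 0.68). *Igfbp6*, which prefers IGF2 over IGF1, was at 49.9, 131 and 128 CPM in *fat-1* and 62.6, 110 and 173 CPM in WT. Sample 1 was again the lowest of each genotype, and WT sample 3 was the highest of all. The fitted difference had a wide interval (log2 fold change −0.16, SE 0.48, 95% interval −1.32 to 0.99).

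*Igfbp5*, the binding protein of involution, had the largest fold change of the 9 genes. It was at 42.0, 77.1 and 114 CPM in *fat-1* and 162, 129 and 61.7 CPM in WT, a mean of 77.6 ± 35.9 against 118 ± 51.0 CPM. WT samples 1 and 2 were above all *fat-1* samples, but WT sample 3 was below *fat-1* samples 2 and 3. The log2 fold change was −0.60 (SE 0.46, 95% interval −1.71 to 0.51), so differences from a fall to about 0.306 times the WT level to a rise to 1.42 times it remain possible. *Igfbp7* was at 79.8, 141 and 164 CPM in *fat-1* and 127, 162 and 132 CPM in WT, with *fat-1* sample 1 standing below the rest. Its log2 fold change was −0.13 (SE 0.27, 95% interval −0.77 to 0.51).

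**Figure D3:**
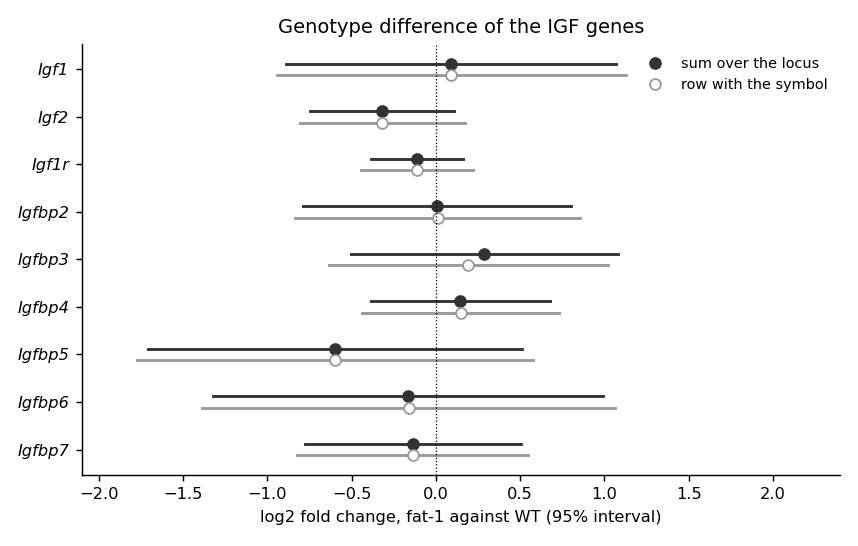
Log2 fold change of each IGF gene, *fat-1* relative to WT, from edgeR's quasi-likelihood fit, for locus sums (filled points) and rows with the symbol (open points), with lines for the 95% intervals. All intervals cross 0, and the narrowest is that of the *Igf1r* locus (−0.39 to 0.16).

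Within a genotype the genes differed in how far the pooled samples spread. The SD of log2(CPM + 1) within genotype was 0.13 for *Igf1r*, 0.22 for *Igf2*, 0.31 for *Igfbp4*, 0.35 for *Igf1* and 0.37 for *Igfbp2*. It was 0.41 for *Igfbp7*, 0.49 for *Igfbp3*, 0.72 for *Igfbp5* and 0.76 for *Igfbp6*. The added 1 lowers this SD for genes at a few CPM, so *Igf1* and *Igfbp2* stand low in this order. As a percentage of the mean CPM, the SD in *fat-1* and WT was 43.5 and 28.0% for *Igf1*. It was 31.0 and 34.0% for *Igfbp2*, beside 33.8 and 13.5% for *Igfbp7*. Among 14624 loci, the spread of *Igfbp6* stood at percentile 95.8, with *Igfbp5* just below it, and that of *Igf1r* at percentile 37.5. *Igfbp6* varied 2.62-fold among the *fat-1* samples and 2.77-fold among the WT samples, and *Igfbp5* 2.71-fold and 2.62-fold. The log2 fold changes of *Igfbp5* and *Igfbp6* were smaller than these SDs.

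The loci of *Igf2*, *Igfbp3* and *Igfbp7* held a further row, which was without counts for *Igf2*. The *Igfbp3* locus held a row without a symbol, which took 21.2, 6.34 and 13.5 CPM in *fat-1* and 8.10, 7.08 and 6.36 CPM in WT. The row with the symbol held 84.4 ± 3.35% of the locus in *fat-1* and 89.1 ± 1.98% in WT (*n* = 3, two-sided exact permutation test, *p* = 0.2). For the unnamed row the log2 fold change was 0.93 (SE 0.43, edgeR adjusted *p* = 1.00), and the genotypes overlapped. The value dropped to 0.47 when *fat-1* sample 1 was removed and rose to 1.27 when *fat-1* sample 2 was removed, so its size depends on single samples.

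The *Igfbp7* locus also held a row without a symbol, and this row did not overlap between genotypes, as was the case for 5.26% of tested rows. Its counts were 37, 281 and 62 in *fat-1* and 10, 5 and 3 in WT, or 0.176, 1.31 and 0.298 CPM against 0.0467, 0.0221 and 0.0146 CPM. All *fat-1* samples were above all WT samples, and *fat-1* sample 2 was far above the others. The log2 fold change was 4.39 (SE 1.00, 95% interval 1.93 to 6.85, edgeR quasi-likelihood adjusted *p* = 1.00), and it was 3.06 without *fat-1* sample 2. With the same adjustment, DESeq2 (adjusted *p* = 0.00125) and edgeR's exact test (adjusted *p* = 0.0219) called it. The row was a small part of its locus, of which the *Igfbp7* symbol row held 99.8, 99.1 and 99.8% in *fat-1* and more than that in each WT sample. *Igfbp7* shares 85 of its 1209 exonic bases with *Polr2b* on the opposite strand, and since strand use was not stated and the matrix gives no position for the row, the RNA it counts is uncertain.

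The genes differed in which samples they were high in, and this order was set against the marker lists. By the mean log2(CPM + 1) of the epithelial markers the samples ran from WT sample 1 (6.06) and *fat-1* sample 1 (5.96) through WT sample 2 (5.44) and *fat-1* sample 3 (5.33) to WT sample 3 (4.59) and *fat-1* sample 2 (4.42). *Igfbp2* and *Igfbp3* were highest in sample 1 of each genotype, as the epithelial markers were. *Igf1*, *Igfbp4* and *Igfbp6* were lowest there. The order crossed the genotypes, with a *fat-1* and a WT sample at each end.

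Over the 6 samples, the epithelial mean went with *Igfbp2* (Pearson *r* = 0.887, exact permutation *p* = 0.0347, adjusted *p* = 0.133) and *Igfbp3* (*r* = 0.839, exact permutation *p* = 0.0597, adjusted *p* = 0.161). It went against *Igfbp6* (*r* = −0.873, exact permutation *p* = 0.0444, adjusted *p* = 0.133), *Igfbp4* (*r* = −0.857, exact permutation *p* = 0.0361, adjusted *p* = 0.133) and *Igf1* (*r* = −0.810, exact permutation *p* = 0.0833, adjusted *p* = 0.166). Spearman's rho was 0.829 for *Igfbp2* (exact permutation *p* = 0.0583, adjusted *p* = 0.225) and 0.886 for *Igfbp3*, and −0.886 for both *Igfbp4* and *Igfbp6* (exact permutation *p* = 0.0333, adjusted *p* = 0.18 for these 3), and −0.771 for *Igf1* (exact permutation *p* = 0.103, adjusted *p* = 0.278). When *fat-1* sample 2 and WT sample 3, the farthest from the median of the epithelial mean, were left out, *r* was 0.790 for *Igfbp2*, 0.661 for *Igfbp3*, −0.937 for *Igfbp4*, −0.949 for *Igfbp6* and −0.951 for *Igf1*. The points share their library, normalization and dissociation, and 0 of the 27 relations computed (9 genes with 3 lists) passed the adjustment.

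The fibroblast markers went most closely with *Igfbp7* (*r* = 0.962, exact permutation *p* = 0.00417, adjusted *p* = 0.113). Spearman's rho was 0.943 (exact permutation *p* = 0.0167, adjusted *p* = 0.18). Leaving out sample 1 of each genotype, the farthest from the median of the fibroblast mean, gave *r* = 0.719. For *Igf1*, *Igfbp4* and *Igfbp6* the relation to the fibroblast markers rested on those samples, since *r* turned from 0.902, 0.805 and 0.873 to −0.486, −0.554 and −0.259 without them. The immune markers went with *Igfbp6* (*r* = 0.894, exact permutation *p* = 0.0264, adjusted *p* = 0.133), with a rho of 0.943 (exact permutation *p* = 0.0167, adjusted *p* = 0.18), and leaving out *fat-1* sample 2 and WT sample 3 gave *r* = 0.914. They also went with *Igfbp4* (*r* = 0.854, exact permutation *p* = 0.0417, adjusted *p* = 0.133, and *r* = 0.961 without the same samples) and *Igf1* (*r* = 0.795, exact permutation *p* = 0.0833, adjusted *p* = 0.166, and *r* = 0.905 without them). The rho was 0.771 for *Igfbp4* (exact permutation *p* = 0.103, adjusted *p* = 0.278) and 0.600 for *Igf1* (exact permutation *p* = 0.242, adjusted *p* = 0.384). The immune mean ran nearly opposite to the epithelial mean. It was 4.74 in WT sample 1 and 4.79 in *fat-1* sample 1, and 5.77 in WT sample 3 and 5.74 in *fat-1* sample 2. The immune relations are therefore not independent of the epithelial ones. *Igfbp5* had *r* = 0.241 with the epithelial markers over the 6 samples (−0.251 without *fat-1* sample 2 and WT sample 3), but its order differed between the genotypes. In WT it ran with the epithelial mean, from 162 CPM in sample 1 through 129 to 61.7 CPM in sample 3. In *fat-1* it was lowest in sample 1 (42.0 CPM), which had the highest epithelial mean of that genotype. With 3 samples each, no correlation is given within a genotype, and the difference was not tested. The part of cell composition in the genotype comparison of these genes was not tested beyond the fits with a marker term, in which 0 of the 9 genes passed the threshold.

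**Figure D4:**
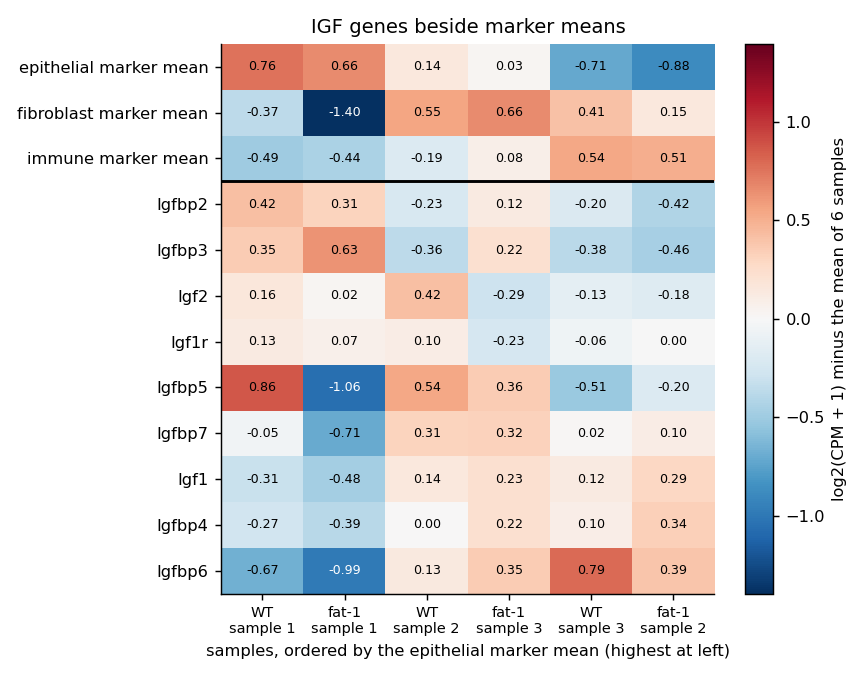
Deviation of log2(CPM + 1) from the mean over the 6 samples, for the IGF genes and the means of the epithelial, fibroblast and immune marker lists, with samples ordered by the epithelial mean. *Igfbp2* and *Igfbp3* are high at the epithelial-rich end and *Igfbp4* and *Igfbp6* at the other end, and the genotypes alternate along the order.

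The mixture of binding protein transcripts shifted along with this. Per exonic length, *Igfbp3* made up 22.4, 6.15 and 8.89% of the binding protein sum in *fat-1* and 13.2, 6.42 and 5.91% in WT. *Igfbp6* made up 28.0, 43.4 and 37.7% against 25.1, 35.4 and 51.9%. Both shares were nearer to each other in sample 1 of each genotype than in the other samples. The log2 ratio of *Igfbp3* to *Igfbp6* CPM ran from −1.64 in WT sample 3 to 1.17 in *fat-1* sample 1 (a ratio chosen after the values were seen). *Igfbp7* was a steady component, at 41.2, 42.9 and 44.5% against 46.6, 48.0 and 36.4%. *Igfbp4* made up 2.37, 2.36 and 1.94% in *fat-1* and 1.84, 1.81 and 1.80% in WT (*n* = 3, two-sided exact permutation test, *p* = 0.1, the smallest possible). Of the 6 shares this was 1 that did not overlap, by a narrow margin, where the levels of 4.15% of all tested loci did not, and the level of *Igfbp4* itself overlapped between genotypes. The sum of all 6 binding proteins was 245 ± 75.4 CPM per kb in *fat-1* and 268 ± 39.2 in WT (*n* = 3, two-sided exact permutation test, *p* = 0.7).

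**Figure D5:**
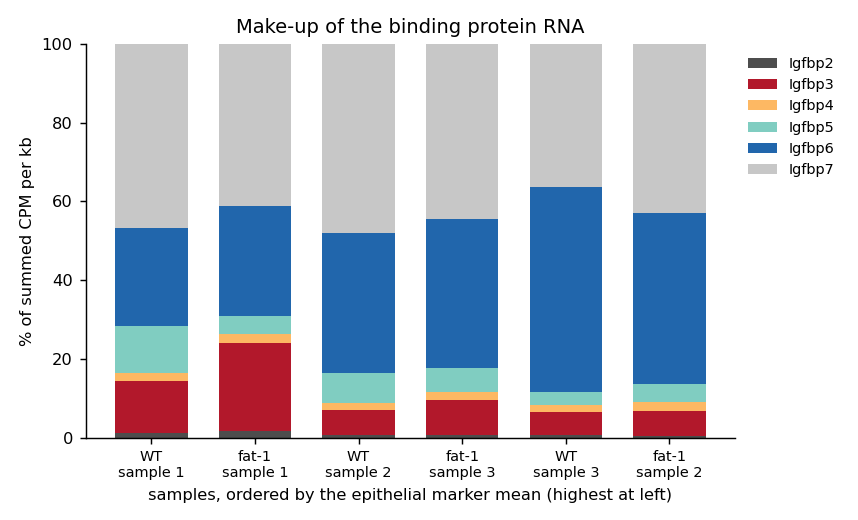
Share of each of the 6 binding proteins in their summed CPM per kb (%), in each sample, ordered by the epithelial marker mean. *Igfbp7* and *Igfbp6* make up most of the sum in every sample, and *Igfbp3* is largest in *fat-1* sample 1 (22.4%).

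The balance of ligand to binding protein transcripts was given as the log2 ratio of summed CPM. It was −3.92, −4.52 and −4.91 in *fat-1* and −4.38, −4.13 and −4.57 in WT. The difference of −0.09 was smaller than the SD within either genotype (0.50 and 0.22), and the two-sided exact permutation test with *n* = 3 gave *p* = 0.9. It was −0.09 without *Igfbp7* and −0.12 per exonic length, and turned to 0.14 without *fat-1* sample 3 and to 0.02 without WT sample 2.

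To show which transcripts had the pattern most like each IGF gene over the 6 samples, 12895 loci were ranked by the root mean square difference of centred log2 values. The 3 nearest loci are given for each gene, with the distance in log2 units. *Igfbp6* lay nearest to *Pcolce* (0.08), *Ogn* (0.09) and *Ccnd2* (0.09), which encode an enhancer of procollagen processing, a small matrix proteoglycan and cyclin D2. *Igfbp7* lay nearest to *Dennd2a* (0.04), *Ecm2* (0.05) and *Il3ra* (0.05), of which *Ecm2* encodes a matrix protein and *Il3ra* a subunit of the interleukin 3 receptor. *Igf2* lay nearest to *Rasgrf2* (0.06), *Emcn* (0.07) and *Mmrn2* (0.07), and *Emcn* and *Mmrn2* are endothelial genes. Other endothelial genes did not all have this order. In a list of 8 such genes, *Emcn* and *Cdh5* were highest in *fat-1* sample 1 and WT sample 2, as *Igf2* was. *Pecam1*, *Kdr*, *Egfl7* and *Cldn5* were lowest in sample 1 of each genotype, and *Vwf* was highest there. *Tek* was lowest in *fat-1* sample 1 and highest in WT sample 2. The nearest loci to *Igfbp2* were *Ly6d* (0.05), *Zfp810* (0.06) and *Coro2a* (0.07), and those to *Igfbp3* were *Hcar2* (0.06), *Smagp* (0.10) and *Kcnh7* (0.11). For *Igf1* they were *Psat1* (0.03), *Prr33* (0.04) and *Tdrd7* (0.05), for *Igf1r* *Fosl2* (0.04), *Kansl1l* (0.05) and *Plag1* (0.05), and for *Igfbp4* *Cyp27a1* (0.02), *Pear1* (0.04) and *Slc38a4* (0.05). *Igfbp5* had no such close neighbour, and its nearest loci were *Cacna1e* (0.21), *Hgf* (0.21) and *Slc12a3* (0.23). These distances were chosen as the smallest of many over 6 samples and are descriptions. The added 1 shrinks the changes of loci near 1 CPM, so loci that lie near each other can differ in fold range. *Igf1* varied 2.59-fold (0.796 to 2.06 CPM), while *Psat1* ran only from 127 to 221 CPM. *Igfbp4* varied 1.69-fold, while *Cyp27a1* ran from 0.924 to 2.13 CPM.

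The rest of the pathway was examined in a list of 46 genes, of which 44 were tested. As locus sums, 0 were higher and 1 was lower in *fat-1* at an unadjusted *p* of 0.05 (beside 1.14% of all loci), and 0 passed after adjustment. The median log2 fold change was 0.01. The lower gene was *Pappa2*, a protease that cuts IGFBP3 and IGFBP5, with 2.79, 3.11 and 3.44 CPM in *fat-1* and 4.37, 4.16 and 4.96 CPM in WT. All *fat-1* samples were below all WT samples. Its log2 fold change was −0.53 (SE 0.15, edgeR quasi-likelihood adjusted *p* = 1.00), within −0.61 to −0.44 over all alternatives, and DESeq2 gave an adjusted *p* of 0.510. As rows, *Pdpk1*, the kinase that activates AKT, also passed the unadjusted threshold (log2 fold change −1.31, SE 0.50, edgeR quasi-likelihood adjusted *p* = 1.00), but its locus sum was at 0.00 (SE 0.08). In all, 4 of the 44 loci did not overlap between genotypes, beside 4.15% of all loci. They were *Pappa2* and *Socs2* (lower in *fat-1*) and *Tsc1* and *Mtor* (higher in *fat-1*), and the log2 fold changes of *Socs2*, *Tsc1* and *Mtor* were small, at −0.12, 0.06 and 0.06.

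Of the other genes around the ligands, *Igf2r*, which clears IGF2, had a log2 fold change of 0.02 (SE 0.22), the insulin receptor *Insr* 0.03 (SE 0.19) and the growth hormone receptor *Ghr* −0.04 (SE 0.16). The receptor substrates *Irs1* and *Irs2* were at −0.30 (SE 0.38) and 0.06 (SE 0.20), and the adaptor *Grb10* at −0.14 (SE 0.20). The pappalysin inhibitor *Stc2* was at −0.57 (SE 0.50), with 88.0, 69.5 and 155 CPM in *fat-1* and 243, 154 and 66.5 CPM in WT. Like *Igfbp5*, *Stc2* was highest in WT sample 1 and low in WT sample 3. *Pappa*, which cuts IGFBP4, was at −0.14 (SE 0.33), and *Htra1*, a secreted serine protease, at −0.22 (SE 0.39). *Igfals*, the third component of the circulating IGF complex, was at −0.01 (SE 0.45) and *Igf2bp2*, which binds *Igf2* mRNA, at −0.04 (SE 0.24). *H19*, the imprinted neighbour of *Igf2* at a distance of 72622 bases, was at 1.30, 11.3 and 7.82 CPM in *fat-1* and 4.37, 7.58 and 6.70 CPM in WT, a log2 fold change of 0.13 (SE 0.69). It was lowest in *fat-1* sample 1 and highest in *fat-1* sample 2, a different order from that of *Igf2*. *Igfbp1*, which lies 3539 bases from *Igfbp3* and is known as a liver product, had 0 counts in all 6 samples.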

How the data were processed

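Per the study's methods and labels, the authors aligned reads to GRCm38 (HISAT2), assembled transcripts (StringTie) and deposited a matrix of whole-number estimated counts with no normalization. How coverage became counts, which annotation was used and whether strand was used are not given in the sources used here, so overlapping genes cannot be separated with certainty. Symbols were matched to rows, and rows of the same locus number were added. Members and lists were chosen with earlier results of these data known. Genotype was the only term in edgeR 4.0.16 (R 4.3.3), after filterByExpr (30683 rows, 24061 loci) and TMM, with the newer quasi-likelihood fit and a threshold of 0.05 on Benjamini–Hochberg values. An SE was obtained from the fold change and the F statistic. Alternatives were DESeq2 1.42.0, edgeR's exact test, other normalizations, no filter, marker terms, a replicate block and leaving out samples. The fits were tested on simulated data. Permutation tests of values were exact and two-sided. They used log2(CPM + 1) for levels and marker means, and log2(CPM per kb + 1) for the binding protein sum. For shares they used percentages, and for ratios log2 ratios. Adjustment was over 27 correlations. Positions and exonic lengths are from GENCODE M21 and promoters from RefSeq. The genes named are all members, fixed pathway genes, pathway genes at the unadjusted threshold, and the 3 loci nearest in pattern to each member. *Pdpk1*, the pathway genes without overlap and the ratios of single genes were chosen after their values were seen, and *Pappa2* and the unnamed rows were then followed through the alternatives. Summaries used pandas 2.3.3, scipy 1.17.1 and numpy 2.4.6 under Python 3.11.15, and plots matplotlib 3.10.9.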

Additional observations from a re-analysis of the deposited data

How the results depend on the processing

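In 15 alternatives for rows and 16 for locus sums, 0 of the 9 genes passed the adjusted threshold. Over all features, DESeq2 called 93 rows and 8 loci, edgeR's exact test 32 rows and 6 loci, and leaving out each sample gave 0 to 2 rows and 0 to 1 loci. With the replicate block, 0 rows, 0 loci and 0 of the 9 genes passed (784 rows, 376 loci and 0 of the 9 genes unadjusted). The numbers are used here only as names, since the labels do not say whether same-numbered samples were prepared together. The deviations of same-numbered samples correlated at 0.80, −0.16 and 0.13. The value for sample 1 was the highest of all pairs, and *fat-1* sample 2 correlated best with WT sample 3 (0.79). Correlations of deviations within groups of 3 cannot decide whether the samples were paired. With an epithelial term *Igf1* turned to −0.042 as a row and −0.033 as a locus. With a fibroblast term *Igfbp2* turned to −0.10 and −0.11, and *Igfbp6* to 0.11 in both.

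Leaving out samples moved the log2 fold changes of locus sums between −0.14 and 0.42 for *Igf1*, −0.44 and −0.17 for *Igf2*, −0.17 and −0.03 for *Igf1r*, −0.19 and 0.32 for *Igfbp2*, 0.01 and 0.57 for *Igfbp3* (rows −0.053 to 0.50), −0.0033 and 0.35 for *Igfbp4* (rows from −0.0013), −0.98 and −0.29 for *Igfbp5*, −0.46 and 0.27 for *Igfbp6* (rows up to 0.26), and −0.35 and 0.13 for *Igfbp7* (rows up to 0.12). The difference in the log2 ratio of ligands to binding proteins moved between −0.35 and 0.14.

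Without the 2 samples farthest from the median, the correlation with the fibroblast mean turned to −0.486 for *Igf1*, 0.174 for *Igf2*, 0.888 for *Igfbp2*, 0.757 for *Igfbp3*, −0.554 for *Igfbp4* and −0.259 for *Igfbp6*, and that of *Igfbp5* turned to −0.251 with the epithelial and 0.218 with the immune mean. Most of these moves come with fewer samples or an added term, and the cause was not tested further. The width of an interval also depends on the table fitted: *Igf1r*, with the same counts as a row and as a locus, had an SE of 0.135 among rows and 0.113 among loci, where the biological coefficient of variation was 0.451 and 0.302. The effect of depth was not tested.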
